A study of Mus musculus with 14 samples.

Results

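The trimethylation of lysine 27 on histone H3 (H3K27me3) was compared between mouse embryonic stem cells (mESCs) that lack the Hoxa cluster and mESCs that lack Hmx1. The comparison used 5 of the 14 libraries of the series: 3 H3K27me3 Cut&Tag libraries of the Hoxa deletion and 2 of the Hmx1 deletion, over a shared table of 74458 peaks. Another 2 libraries, of a Wnt6 deletion, were left out of the fit and are given only as a reference level, and the 7 IgG libraries were not analysed here. All lines derive from G4 mESCs, a hybrid of the 129/Sv and C57BL/6 mouse strains. They were grown with leukaemia inhibitory factor (LIF) on a layer of CD1 feeder cells. The deletions were made with CRISPR-Cas9 on both alleles, no unedited cells are in the table, and if each deletion is 1 clone, deletion and clone cannot be told apart. Nothing in the labels says that replicates came from separate cultures, so p-values measure the spread between these libraries, which may be technical.

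H3K27me3 is laid down by Polycomb repressive complex PRC2, which gathers at CpG-rich promoters of silent developmental genes in mESCs and spreads the mark into neighbouring chromatin. Distant Polycomb sites can meet in the nucleus, and the study removed such loop anchors to ask whether the mark then changes at the partner site or elsewhere. Imprinted genes, which are active on the allele of 1 parent and silent on the other, can carry H3K27me3 on a single allele. Cut&Tag tethers the Tn5 transposase to the antibody, so counts at a peak reflect the mark, the number of DNA copies and the share of cells that carry it together, and these cannot be told apart.

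Several of the changes described below lay over gene start sites. The stretches of 250 bases before 6 start sites that a called peak overlapped are shown because they belong to genes on which the results turn: 2 imprinted genes (Nap1l5 and Mest, the latter with a pair of start sites), Camkk2 and Zfp783 with more H3K27me3 in the Hoxa deletion, and Rnf128 with less. Sequences are from RefSeq on GRCm38.p6, 5′ to 3′ on the strand of the gene, and capitals mark CG dinucleotides, the feature to which Polycomb complexes are drawn.
Nap1l5: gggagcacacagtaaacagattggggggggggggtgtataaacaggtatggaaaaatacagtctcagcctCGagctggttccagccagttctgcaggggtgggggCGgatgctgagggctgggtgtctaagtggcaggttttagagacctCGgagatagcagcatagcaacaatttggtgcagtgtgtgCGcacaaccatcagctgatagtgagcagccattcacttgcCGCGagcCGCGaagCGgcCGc
Mest, first start site: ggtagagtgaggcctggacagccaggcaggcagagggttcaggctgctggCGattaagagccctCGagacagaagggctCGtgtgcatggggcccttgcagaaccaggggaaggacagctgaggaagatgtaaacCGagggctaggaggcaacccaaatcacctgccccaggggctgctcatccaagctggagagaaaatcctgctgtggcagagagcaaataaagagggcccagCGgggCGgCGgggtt
Mest, second start site: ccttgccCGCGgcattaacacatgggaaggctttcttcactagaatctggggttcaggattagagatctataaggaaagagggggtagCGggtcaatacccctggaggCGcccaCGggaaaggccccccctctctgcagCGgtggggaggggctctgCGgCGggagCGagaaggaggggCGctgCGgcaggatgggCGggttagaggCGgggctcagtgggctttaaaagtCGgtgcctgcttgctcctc
Camkk2: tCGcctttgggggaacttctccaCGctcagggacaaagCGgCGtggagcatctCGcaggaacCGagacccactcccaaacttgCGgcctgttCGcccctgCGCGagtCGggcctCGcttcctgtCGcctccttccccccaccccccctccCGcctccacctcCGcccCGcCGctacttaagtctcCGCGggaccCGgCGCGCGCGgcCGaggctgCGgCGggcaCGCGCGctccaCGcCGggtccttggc
Zfp783: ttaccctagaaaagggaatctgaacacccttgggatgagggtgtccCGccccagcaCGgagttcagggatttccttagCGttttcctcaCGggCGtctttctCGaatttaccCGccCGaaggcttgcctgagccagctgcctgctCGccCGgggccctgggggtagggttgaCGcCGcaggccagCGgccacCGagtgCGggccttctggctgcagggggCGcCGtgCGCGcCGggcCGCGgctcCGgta
Rnf128: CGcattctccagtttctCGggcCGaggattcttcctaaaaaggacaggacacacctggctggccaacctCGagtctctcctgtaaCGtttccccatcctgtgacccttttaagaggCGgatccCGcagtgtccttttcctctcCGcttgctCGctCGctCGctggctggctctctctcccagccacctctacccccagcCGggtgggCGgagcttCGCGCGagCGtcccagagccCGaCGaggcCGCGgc
They lie at chr6:58907127-58907376 on the minus strand (Nap1l5), chr6:30733256-30733505 and chr6:30737800-30738049 on the plus strand (Mest), chr5:122779411-122779660 on the minus strand (Camkk2), chr6:47942925-47943174 on the plus strand (Zfp783) and chrX:139610370-139610619 on the plus strand (Rnf128). Camkk2 held 32 CG dinucleotides, a number that 4.59% of 32817 distinct promoter windows reached or passed. Zfp783 held 23 and Rnf128 held 21, reached by 13.3% and 16.3% of windows. Nap1l5 held 10 and the start sites of Mest held 7 and 14, reached by 37.8%, 46.3% and 29.3%. The imprinted promoters were thus poorer in CG than the other 3.

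The deleted stretches were checked first. In the Hoxa deletion 46 consecutive peaks from 52163046 to 52274461 on chromosome 6, which cover Hoxa2 to Hoxa13, held 16, 82 and 46 counts in the 3 libraries. That is 0.092%, 0.16% and 0.149% of the Hmx1 deletion level, or 0.133% ± 0.0363 (SD, n = 3). In the Hmx1 deletion 11 consecutive peaks from 35382872 to 35401827 on chromosome 5, which cover Hmx1, held 12 and 32 counts, 0.254% ± 0.0838 (SD, n = 2) of the Hoxa deletion level. Both labels were thus matched by the loss of their own stretch, and the stretches were left out of every count that follows. Totals over all peaks were 8656908, 25595584 and 15385487 counts in replicates 1 to 3 of the Hoxa deletion and 6016500 and 25798208 in replicates 1 and 2 of the Hmx1 deletion, so the first Hmx1 deletion library was the shallowest. Levels are given as CPM (counts per 1000000 counts in peaks of the library, with TMM scaling), at 1 peak unless stated.

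H3K27me3 marks Polycomb targets and says only indirectly which cells were sampled. Of 11 mESC marker genes, 8 had a tested peak within 2 kb, Pou5f1 and Sox2 among them, and the 3 without were Nanog, Tdgf1 and Sall4. Summed over the 34 peaks of these markers the level was 347 to 363 CPM in the Hoxa deletion and 328 and 338 CPM in the Hmx1 deletion. Of 36 fibroblast genes, the list for feeder cells, 29 had a tested peak, and off chromosome 8 their summed level was 2490 to 2600 CPM in the Hoxa deletion against 2630 and 2620 CPM in the Hmx1 deletion. Only peaks that passed the count filter entered these sums, so neither could be near 0. The mESC markers had been listed as genes expected to lack the mark, yet their peaks had a median of 4.05 CPM, against 3.8 CPM for all tested peaks with chromosome 8. Each list stood slightly apart between the groups, and the part of feeder cells in the results was not tested.

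Outside chromosome 8, the Hoxa deletion had more peaks with raised than with lowered H3K27me3. Calls required a log2 fold change beyond 1 in either direction together with an adjusted p under 0.05 (edgeR quasi-likelihood test, Benjamini-Hochberg over all 74382 tested peaks). All log2 fold changes are Hoxa deletion minus Hmx1 deletion. Of 68757 tested peaks 796 (1.16%) were called, 668 higher (0.972%) and 128 lower (0.186%) in the Hoxa deletion. Including chromosome 8 the share was 1.65%, with 0.748% lower. With no fold minimum, 4.81% of peaks off chromosome 8 had an adjusted p under 0.05. The median log2 fold change over all peaks off chromosome 8 was 0.03. At 792 of the 796 called peaks the 3 Hoxa deletion libraries lay wholly to one side of the 2 Hmx1 deletion libraries, which held for 33.0% of all tested peaks. Most differences were modest: the median absolute log2 fold change was 1.22 among peaks called higher, with 16 of 668 above 2, and 1.32 among peaks called lower, with 19 of 128 above 2. DESeq2 at the same thresholds called 345 higher and 37 lower. The count of higher calls depended in part on chromosome 8, which was lower in the Hoxa deletion and entered the scaling. With chromosome 8 left out of scaling and fit, 509 peaks were called higher and 129 lower. With the median of each chromosome removed it was 494 and 122.

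Peaks called in the 2 directions differed in kind. Those called higher were 520 bp wide at the median, against 479 bp over all tested peaks, and 73.5% overlapped a gene (64.6% of all). Those called lower were narrower, at 398 bp, and weaker, at 2.36 CPM against 3.84 CPM for all tested peaks. Of them, 11.7% had no other peak within 50 kb, against 6.29% of all. Among peaks with a distance to a start site of the promoter table (500 of those called higher, 97 of those called lower and 52699 of all), 27.6%, 9.28% and 24.2% lay within 1 kb of it. Level bears on the power of the call, so these shares are a description. Of 10696 tested peaks that overlapped a promoter window, 95 were called higher and 6 lower. The GC content of those windows had a median of 60.8% for the 95 and 61% for all, and the share called higher was between 0.789% and 0.969% in each of the 4 bins of GC content with about equal numbers of peaks.

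Chromosome 8 stood apart. Of its 5568 tested peaks 428 (7.69%) were called, all lower in the Hoxa deletion, and 93.2% of its log2 fold changes were below 0. Their median was -0.58, and against the mean of the Hmx1 deletion it was -0.56, -0.55 and -0.56 in the 3 Hoxa deletion libraries. The Wnt6 deletion libraries stood at 0.00 and 0.03 on that scale, with the Hmx1 deletion. Chromosome 8 held 5.45%, 5.46% and 5.49% of the counts of the Hoxa deletion libraries, 7.95% and 7.81% of the Hmx1 deletion libraries and 7.92% and 7.81% of the Wnt6 deletion libraries. The decrease was spread over the whole chromosome: in 13 windows of 10 Mb the median lay between -0.76 and -0.49. With the peaks split by level into 4 equal bins, it was -0.71 in the weakest and -0.54 in the strongest. On the other 19 chromosomes (Y and unplaced contigs left aside) the median ranged from -0.04 to 0.10 and the share called from 0.401% (X) to 2.70% (chromosome 6).

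**Figure D1:**
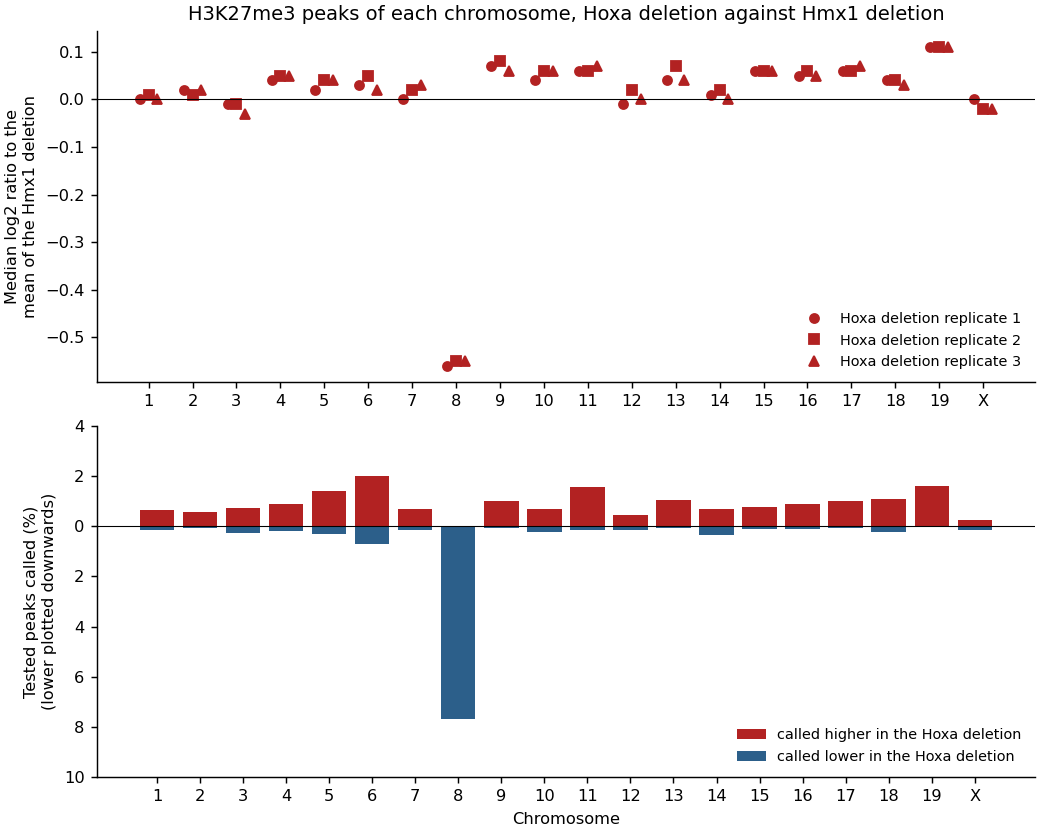
Upper plot: median over the tested peaks of each chromosome of the log2 ratio of each Hoxa deletion library to the mean of the Hmx1 deletion. Lower plot: share of tested peaks called higher (upwards) or lower (downwards) in the Hoxa deletion. The 3 libraries lie together near -0.55 on chromosome 8 and between about -0.03 and 0.11 elsewhere, and 7.69% of chromosome 8 peaks are called, all lower.

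**Figure D2:**
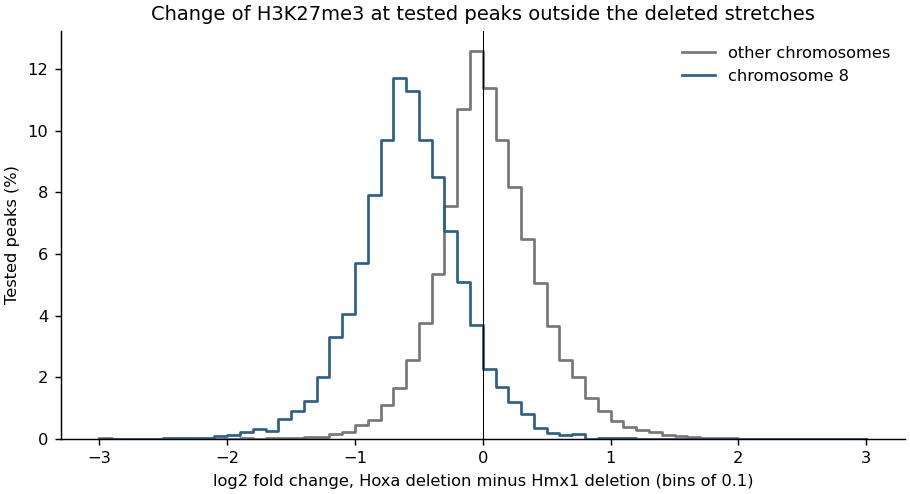
Share of tested peaks (vertical axis, %) in bins of 0.1 of the log2 fold change, Hoxa deletion minus Hmx1 deletion, for chromosome 8 and for all other chromosomes. The chromosome 8 curve has its median at -0.58 and the other at 0.03.

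Since the whole chromosome was lower, single peaks on it were also read against the chromosome median. With the median of each chromosome removed, 24 peaks of chromosome 8 were called, 12 in each direction. Peaks in Prag1 (log2 fold change -1.20) and in Efnb2, the ephrin-B2 gene (-1.10), were no longer called then. Runs of neighbouring called peaks, with no tested uncalled peak between them, covered Nkd1, a Wnt pathway inhibitor (5 peaks, log2 fold changes from -1.59 to -1.22), and the adhesion gene Cdh8 (4 peaks, from -1.51 to -1.01). These runs were taken before the chromosome median of -0.58 was removed and were not taken again after it.

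Some peaks next to each deleted stretch carried less H3K27me3 in the line with that deletion. Within 100 kb of the Hoxa stretch 5 of 16 tested peaks (31.2%) were called, all lower in the Hoxa deletion, and within 100 kb of the Hmx1 stretch 6 of 29 (20.7%) were called, all higher in the Hoxa deletion and so lower in the Hmx1 deletion. The median log2 fold change was -0.06 on the Hoxa side and 0.19 on the Hmx1 side, and within 50 kb it was -0.28 and 0.79. The 100 kb medians moved with single libraries: on the Hoxa side it was 0.022 without replicate 2 and -0.168 without replicate 1 of the Hmx1 deletion and -0.141 without replicate 1 of the Hoxa deletion. On the Hmx1 side it was 0.370 without replicate 2 of the Hmx1 deletion and 0.098 without replicate 3 of the Hoxa deletion. All 11 called peaks lay within 16.5 kb of a stretch.

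At the Hoxa edge the peak in Hotairm1, a noncoding RNA gene, at 52160461 to 52160910, lay 2.14 kb from the stretch. It had 3.63, 4.45 and 3.72 CPM in the Hoxa deletion and 24.3 and 23.0 CPM in the Hmx1 deletion (log2 fold change -2.55 ± 0.175 SE, edgeR adjusted p = 8.30e-18). The Wnt6 deletion had 18.7 and 22.2 CPM, on the side of the Hmx1 deletion. On the other side, 3 peaks between the stretch and Evx1 had log2 fold changes of -2.50, -2.06 and -1.88, and the peak at 52290966, 16.5 kb out, had 30.4, 28 and 26.6 CPM against 58.0 and 57.8 CPM (-1.04 ± 0.104 SE, edgeR adjusted p = 2.81e-11). The call of this last peak was lost without replicate 3 of the Hoxa deletion, and that of the weak peak at -1.88 without replicate 2 of either line. Over Evx1 itself, a homeobox gene, the broad peak at 52313412 to 52318090 stood at 329, 311 and 303 CPM against 295 and 326 CPM (log2 fold change 0.01, edgeR adjusted p = 0.955). The groups overlapped there.

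At the Hmx1 edge the peak at 35402378 to 35403142, 0.551 kb from the stretch, had 32.4, 32.2 and 29.7 CPM in the Hoxa deletion against 5.90 and 3.96 CPM in the Hmx1 deletion (log2 fold change 2.80 ± 0.171 SE, edgeR adjusted p = 4.07e-20). The next peaks outward had log2 fold changes of 2.02, 2.15 and 1.27. Summed over these 4 peaks, the Wnt6 deletion libraries had 92.4 and 109 CPM, close to the 89.3 to 94.4 CPM of the Hoxa deletion and far from the 19.9 and 20.9 CPM of the Hmx1 deletion. On the other side, 2 peaks 9.33 kb and 12.7 kb away were called (log2 fold changes 1.23 and 1.0). The former lost its call without replicate 2 of the Hmx1 deletion. The latter lay just past the fold minimum and lost its call without replicate 1 of the Hmx1 deletion or without replicate 2 or 3 of the Hoxa deletion.

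**Figure D3:**
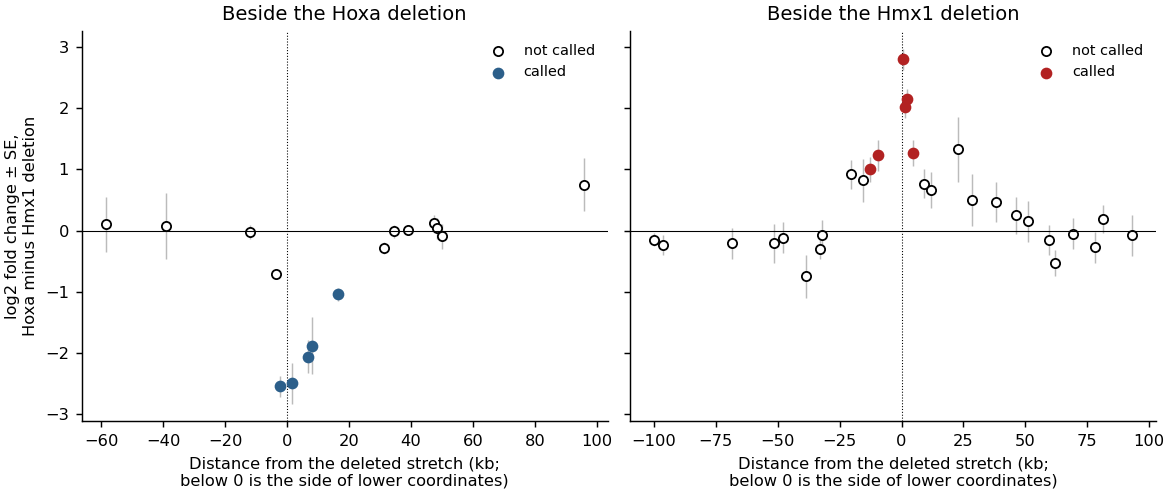
Log2 fold change (Hoxa deletion minus Hmx1 deletion, bars are SE) of each tested peak within 100 kb of the Hoxa stretch (left) and of the Hmx1 stretch (right), by distance in kb; filled points were called. Called peaks lie within 16.5 kb of either stretch, lower beside Hoxa and higher beside Hmx1.

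No tested peak within 10 kb of the loop partners of the 2 anchors was called. Vax2, a homeobox gene of the developing eye, is the partner of the Hoxa anchor and lies 31.4 Mb away. The peak at its lower-coordinate end, at 83710467 to 83712487, had 190, 169 and 174 CPM in the Hoxa deletion and 181 and 188 CPM in the Hmx1 deletion (log2 fold change -0.06 ± 0.0726 SE). The groups overlapped. At the other end of the gene, at 83737287 to 83738431, a weaker peak had 14.3, 17.3 and 17.5 CPM against 12.3 and 12.6 CPM (0.41 ± 0.158 SE, edgeR adjusted p = 0.122), and there the groups did not overlap. Within 10 kb of Vax2 none of 15 peaks was called by edgeR or DESeq2, 2 had an unadjusted p under 0.05, and the median was 0.04. Nkx1-1 and Msx1, homeobox genes, are the partners of the Hmx1 anchor, 1.94 Mb away at the nearest. None of 17 peaks was called by either tool, 2 had an unadjusted p under 0.05, and the median was -0.05. Of all tested peaks off chromosome 8, edgeR called 1.16%, and 15.9% had an unadjusted p under 0.05. Sets of 15 and 17 peaks may therefore well hold no call. The 4 peaks at the ends of these genes had log2 fold changes of -0.03, 0.08, -0.03 and -0.10, with levels from 51.3 CPM at Msx1 to 222 CPM at Nkx1-1.

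The chromosomes that carry the deletions had more calls than the 1.16% over all chromosomes without chromosome 8. On chromosome 6, 106 of 3930 tested peaks (2.70%) were called outside the stretch, 79 higher and 27 lower, and over 10 Mb from the stretch the share was 2.33%. On chromosome 5 it was 79 of 4618 (1.71%), 65 higher and 14 lower. Between 1 and 10 Mb from the Hmx1 stretch 3 of 662 peaks (0.453%) were called. In the same band from the Hoxa stretch 4.56% of 417 peaks were called, 14 higher and 5 lower. Chromosome 11 (1.73%) and chromosome 19 (1.60%), which carry no deletion, had shares like that of chromosome 5, and on chromosome 19 all 33 called peaks were higher.

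The changes of greatest size lay at a few isolated loci, several of them imprinted. On chromosome 7 a peak in Zfp787, a zinc finger gene, at 6131781 to 6133471, had 2.11, 3.16 and 2.89 CPM in the Hoxa deletion and 79.3 and 82.8 CPM in the Hmx1 deletion, a 28.3-fold difference (log2 fold change -4.82 ± 0.137 SE, edgeR adjusted p = 1.33e-36). The Wnt6 deletion had 84.7 and 76.0 CPM, so that here the Hoxa deletion was the line that stood alone. At Mest on chromosome 6, a paternally expressed gene of fetal growth, 4 neighbouring peaks were called lower. Their summed level was 5.99, 5.85 and 4.58 CPM in the Hoxa deletion, 58.3 and 57.8 CPM in the Hmx1 deletion and 46.3 and 46.9 CPM in the Wnt6 deletion, with log2 fold changes from -4.67 to -2.97. The first of them overlapped one of the Mest start sites printed above and the last the other.

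H19, a maternally expressed noncoding RNA gene on chromosome 7, showed a like pattern. The 3 neighbouring peaks in and beside it summed to 10.2, 8.90 and 8.57 CPM in the Hoxa deletion, 55.6 and 59.3 CPM in the Hmx1 deletion and 60.1 and 56.4 CPM in the Wnt6 deletion, with log2 fold changes from -3.98 to -1.67. On chromosome 15, 2 peaks at Peg13, a paternally expressed noncoding RNA gene inside Trappc9, were lower. The stronger, at 72809930 to 72810752, had 0.234, 0.228 and 0.899 CPM against 8.25 and 8.66 CPM (log2 fold change -4.23 ± 0.352 SE, edgeR adjusted p = 7.82e-14), and 8.13 and 8.36 CPM in the Wnt6 deletion. A weaker difference was called at Grb10, an imprinted growth inhibitor on chromosome 11 (log2 fold change -1.09).

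At Nap1l5 and B3glct it was the Hmx1 deletion that stood alone. The peak over the start of Nap1l5, a paternally expressed gene inside Herc3 on chromosome 6, at 58906606 to 58907662, had 23.7, 29.0 and 25.5 CPM in the Hoxa deletion and 0.337 and 0.314 CPM in the Hmx1 deletion (log2 fold change 6.33 ± 0.279 SE, edgeR adjusted p = 5.91e-27). The Wnt6 deletion had 18.4 and 17.6 CPM. Near the end of chromosome 5 the reverse held: a peak in B3glct, which encodes a glucosyltransferase, at 149737831 to 149739344, had 1.29, 1.60 and 1.03 CPM in the Hoxa deletion and 38.7 and 32.7 CPM in the Hmx1 deletion (log2 fold change -4.70 ± 0.193 SE, edgeR adjusted p = 1.85e-28), with 0.926 and 1.05 CPM in the Wnt6 deletion. A pair of peaks in Fry, a microtubule-associated gene nearby, followed (log2 fold changes -3.79 and -3.60).

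Over the whole list of 84 imprinted genes, 3 of 347 peaks off chromosome 8 within 2 kb were called higher (0.865%, against 0.972% of all peaks) and 10 lower (2.88%, against 0.186%), and the median was -0.07. The calls thus sat on few members. The other 2 higher calls, both in Kcnq1 and Kcnq1ot1, had log2 fold changes of 1.08 and 1.61. DESeq2 called 8 of the 347. Of the 10 lower peaks, 4 belonged to Mest, 3 to H19 and 2 to Peg13.

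**Figure D4:**
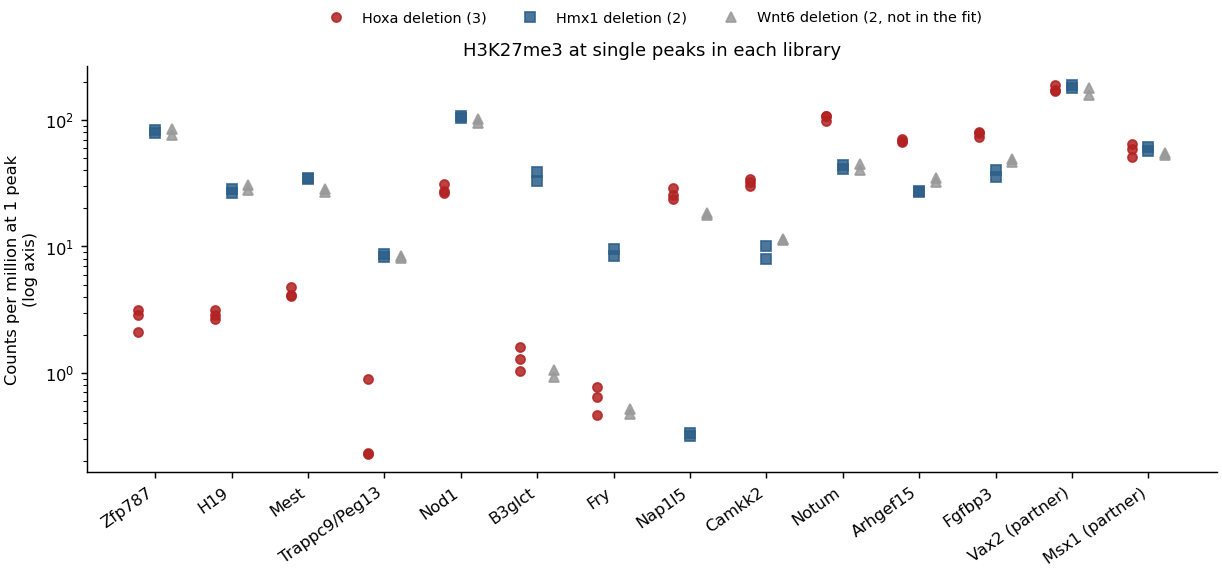
H3K27me3 in CPM (log axis) at 1 peak per gene in each of the 3 Hoxa, 2 Hmx1 and 2 Wnt6 deletion libraries, 1 point per library; the last 2 genes are loop partners. The Hoxa deletion stands alone at Zfp787, H19, Mest, Trappc9/Peg13 and Nod1 and the Hmx1 deletion at B3glct, Fry and Nap1l5, while the groups lie together at Vax2 and Msx1.

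Other single peaks lower in the Hoxa deletion lay away from imprinted genes. In Nod1, an intracellular sensor of bacterial cell walls on chromosome 6, the peak at 54942986 to 54945266 had 26.6, 27.5 and 31.5 CPM against 103 and 108 CPM (log2 fold change -1.89 ± 0.0923 SE, edgeR adjusted p = 1.00e-24), and 102 and 94.5 CPM in the Wnt6 deletion. At the start of Rnf128 on the X chromosome, a ubiquitin ligase gene, it was 16.4, 15.9 and 15.9 CPM against 41.1 and 38.3 CPM (-1.30 ± 0.124 SE, edgeR adjusted p = 4.89e-12). A peak in Tnc, the matrix gene tenascin C of the fibroblast list, had 11.2, 11.8 and 12.8 CPM against 29.5 and 24.0 CPM (-1.13), the only call off chromosome 8 among the 103 peaks of that list. At all 3 the Wnt6 deletion lay nearer the Hmx1 deletion.

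The peaks called higher in the Hoxa deletion were many and of about 2-fold size, and a minority stood in runs. Off chromosome 8, 30 runs of 3 or more neighbouring called peaks were found, 26 higher and 4 lower. Of all called peaks off chromosome 8, 83.9% were higher. The higher runs include that beside the Hmx1 stretch, and the lower runs that beside the Hoxa stretch. The run with most peaks covered 13 peaks over 75.0 kb at Bahcc1 on chromosome 11, which encodes a chromatin protein with a BAH domain. Its summed level was 253, 255 and 257 CPM in the Hoxa deletion, 118 and 111 CPM in the Hmx1 deletion and 132 and 131 CPM in the Wnt6 deletion. A second run of 6 peaks beside that run, at Bahcc1 and 2900052L18Rik, had 73.8, 80.6 and 86.2 CPM against 31.6 and 35.5 CPM. The libraries of each line were close to each other in both runs.

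The same end of chromosome 11 held Notum, which encodes a secreted enzyme that inactivates Wnt proteins. Its peak at 120658811 to 120661396 had 107, 108 and 98.5 CPM in the Hoxa deletion and 40.8 and 43.8 CPM in the Hmx1 deletion, a 2.45-fold difference (log2 fold change 1.29 ± 0.0905 SE, edgeR adjusted p = 2.00e-17). The Wnt6 deletion had 45.2 and 40.4 CPM. In the window from 120 to 125 Mb of chromosome 11, 21 of 106 tested peaks (19.8%) were called, all higher, and the median log2 fold change was 0.33. Over all 487 windows of 5 Mb off chromosome 8, medians lay between -0.32 and 0.47, and 218 windows held no call.

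Other runs were shorter. On chromosome 5, 8 peaks over 49.7 kb between Msi1, a neural RNA-binding protein gene, and Sirt4 summed to 40.0, 44.7 and 41.1 CPM against 18.4 and 14.8 CPM. On chromosome 11, 5 peaks in Arhgef15, a guanine nucleotide exchange factor gene, summed to 144, 138 and 150 CPM against 49.5 and 52.9 CPM. On chromosome 19, 5 peaks between Pkd2l1, an ion channel gene, and Scd2, a fatty acid desaturase gene, summed to 77.3, 79.8 and 86.1 CPM against 33.6 and 28.8 CPM. In each of these the Wnt6 deletion lay above the Hmx1 deletion and well below the Hoxa deletion.

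**Figure D5:**
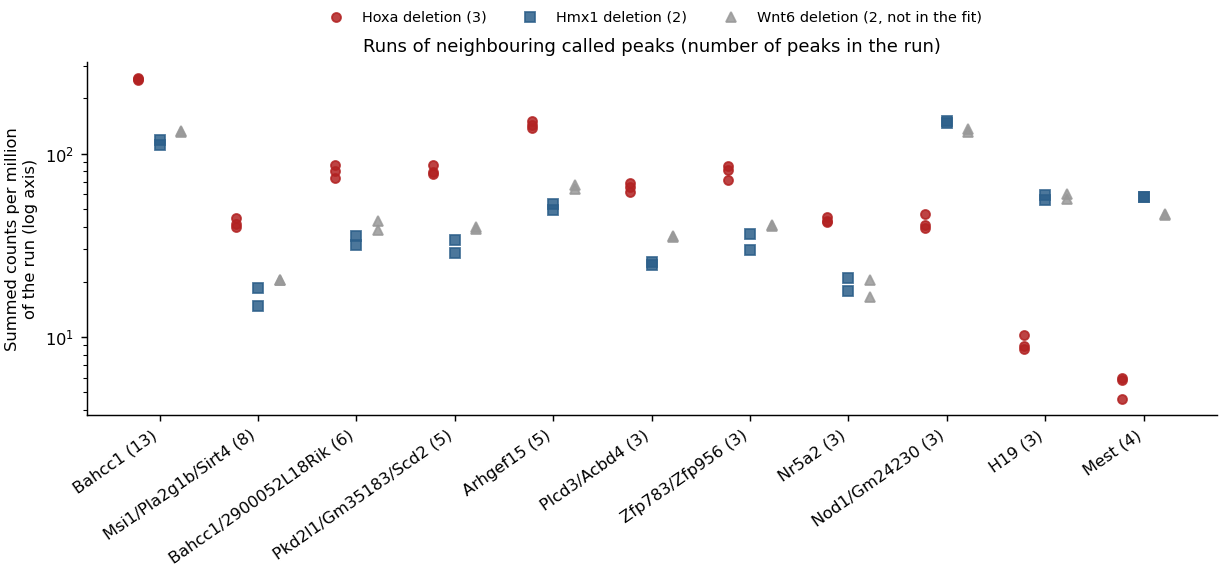
Summed H3K27me3 in CPM (log axis) over runs of neighbouring called peaks in each library, 1 point per library, with the number of peaks in brackets. The Hoxa deletion is above the others in the first 8 runs and below them at Nod1, H19 and Mest, and the Wnt6 deletion lies near the Hmx1 deletion in all 11.

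Among peaks over start sites, the one of Camkk2 on chromosome 5, a kinase of the calcium and AMPK pathways, had 34.0, 30.1 and 32.2 CPM against 7.92 and 10 CPM (log2 fold change 1.77 ± 0.147 SE, edgeR adjusted p = 2.61e-14). Its promoter was the one richest in CG of those printed. The peak of Fgfbp3, a carrier of fibroblast growth factors on chromosome 19, had 80.3, 73.9 and 78.7 CPM against 40.3 and 35.2 CPM (1.06 ± 0.0962 SE, edgeR adjusted p = 8.02e-13). The Fgfbp3 peak was no longer called without replicate 2 of the Hmx1 deletion. At the starts of Slc4a2, an anion exchanger, and Usp46, a deubiquitinase, the log2 fold changes were 1.27 and 1.52.

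Protein-coding zinc finger genes (symbols that start with Zfp) had 21 of 584 peaks off chromosome 8 called higher (3.60%, against 0.972% of all peaks) and 1 lower (0.171%, against 0.186%), the latter at Zfp787, with a median of 0.16. Many of these genes encode repressors of transposable elements. The higher calls fell at 19 genes, among them Zfp956, Zfp777 and Zfp282 on chromosome 6. Between them lies Zfp783, which RefSeq lists as noncoding and which the list therefore leaves out. The peak over its start had 41.6, 37 and 41.1 CPM against 15.2 and 18.9 CPM (log2 fold change 1.18 ± 0.125 SE, edgeR adjusted p = 1.97e-10), with 20.6 and 21.6 CPM in the Wnt6 deletion. The peaks with the smallest adjusted p at Zfp956, Zfp777 and Zfp282 had log2 fold changes of 1.39, 1.31 and 1.26. Repin1, a zinc finger gene of another name on the same chromosome, had 43.2, 41.9 and 50.2 CPM against 12.1 and 18.2 CPM (1.49), but there the Wnt6 deletion, at 41.9 and 36.0 CPM, lay with the Hoxa deletion.

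Homeobox genes are classic Polycomb targets, and neither homeobox list had a called peak within 2 kb of its genes off chromosome 8. None of 112 peaks at the 29 genes of the Hoxb, Hoxc and Hoxd list was called by edgeR or DESeq2, 2 had an unadjusted p under 0.05, and log2 fold changes ran from -0.45 to 0.18. Of 500 peaks off chromosome 8 at 106 other homeobox genes, likewise none was called by either tool, and 46 had an unadjusted p under 0.05. Of all tested peaks off chromosome 8, 15.9% had one. Of 461 peaks at other developmental transcription factor genes 5 were called higher (1.08%, against 0.972% of all peaks) and 3 lower (0.651%, against 0.186%), 74 had an unadjusted p under 0.05, and the median was -0.06.

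The one with the smallest adjusted p was at Tbx3, which also belongs to the pluripotency network. Its peak at 119682559 to 119683431 on chromosome 5 had 21.2, 22.4 and 19.2 CPM against 10.4 and 10.3 CPM (log2 fold change 1.02 ± 0.156 SE, edgeR adjusted p = 2.83e-06). A peak over the start of Gli2, a Hedgehog transcription factor, had a log2 fold change of 1.0. Weak peaks in Tbx5 and Wt1, regulators of heart and kidney, were lower (-1.0 and -1.58), and Wt1 and Runx1, a blood cell regulator, each had 1 call in either direction. The call at Tbx3 was lost without replicate 2 of the Hoxa deletion, and those at the Gli2 start, Tbx5 and Wt1 without replicate 2 of the Hmx1 deletion, among other settings.

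Of the 61 peaks off chromosome 8 at 21 pluripotency genes 4 were called higher (6.56%, against 0.972% of all peaks). None was called lower (0.186% of all peaks), and the median log2 fold change was 0.25. Besides Tbx3, the calls were 3 neighbouring peaks in Nr5a2, an orphan nuclear receptor active in mESCs. Together they had 43.0, 44.8 and 42.1 CPM in the Hoxa deletion, 21.0 and 17.9 CPM in the Hmx1 deletion and 16.4 and 20.4 CPM in the Wnt6 deletion. The broadest of the 3 was not called without replicate 2 of the Hmx1 deletion. None of 62 peaks at formative and primed pluripotency genes was called by either tool, and 16 of the 62 had an unadjusted p under 0.05. Over all peaks off chromosome 8 these shares were 1.16% (edgeR calls) and 15.9%, so a list of this size may well hold no call.

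The lists of signalling and adhesion genes are to be read against the 0.972% called higher and 0.186% called lower over all peaks off chromosome 8. Of 301 peaks at secreted signalling genes 5 were called higher (1.66%), 2 at Notum and 1 each at Wnt5b, Fgf17 and Jag1, and none lower. Of 512 peaks at axon guidance and adhesion genes 6 were called higher (1.17%) and none lower. They lay at Unc5b and Ntn1, a netrin receptor and a netrin (log2 fold changes 1.07 and 1.60 where the adjusted p was smallest), at Ephb2, an ephrin receptor (1.35), and beside Efna1, an ephrin (1.58, in the neighbouring Slc50a1). Protocadherin genes had 5 of 183 peaks higher and 1 lower, led by a peak in Pcdhgc4 and Pcdhgc5 with 36.9, 37.6 and 39.0 CPM against 16.3 and 14.5 CPM (1.32). Potassium and calcium channel genes had 1 call in 472 peaks (0.212%), at Kcnj6. Neurotransmitter receptor genes had 3 in 396 (0.758%), germ line genes 1 in 34 (Stra8, log2 fold change 1.03) and olfactory receptor genes 1 in 93. Each of the single calls at Wnt5b, Fgf17, Jag1, Kcnj6, Stra8, Grik3, Grm7 and Olfr317 was lost when 1 or another library was left out, and DESeq2 called none of these 8.

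The Wnt6 deletion libraries, which no call used, lay nearer to the Hmx1 deletion than to the Hoxa deletion at 433 of the 668 peaks called higher, 91 of the 128 called lower and 392 of the 428 called on chromosome 8. They lay nearer to the Hoxa deletion at 235, 37 and 36. On a scale where the Hmx1 deletion is 0 and the Hoxa deletion is 1, their median position was 0.379 for peaks called higher and 0.301 for peaks called lower. These counts use the mean of the Wnt6 deletion libraries. Both of its libraries lay nearer to the Hmx1 deletion at 331 of the 668 peaks and 71 of the 128, and both nearer to the Hoxa deletion at 158 and 20. Nap1l5, B3glct and the first peak beside the Hmx1 stretch were of the latter kind.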

How the data were processed

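H3K27me3 was measured by Cut&Tag in deletion lines of mESCs. The table used was deposited by the authors as raw counts per peak on mm10, and coordinates are printed as deposited. Bowtie2, Trimmomatic, SAMtools, Picard, MACS2 and deepTools are named in the submitters' processing notes; how the shared peaks were made, and whether duplicates were removed, is not given in the sources used here. Counts of 3 Hoxa and 2 Hmx1 deletion libraries (6016500 to 25798208 counts in peaks, so weak peaks in the shallowest library are the least precise) were fitted with edgeR 4.0.16 (R 4.3.3, TMM, filterByExpr by group, robust glmQLFit), 76 peaks being filtered out. CPM are TMM-scaled, and the SE of a log2 fold change was derived from the F statistic. Deleted stretches were taken as consecutive peaks under 10% of the other line. Groups followed the titles. Gene labels are the overlapping or else the nearest RefSeq gene. Lists took peaks within 2 kb of a gene.

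Alternatives were DESeq2 1.42.0, other scalings, filters, thinning, peak domains, a test against a log2 fold change of 0.5, blocks by replicate number and leaving out each library. On simulated data edgeR recovered 92% of 100 peaks changed by a log2 of 1.5 and 100% at 3, with 8 unchanged peaks called among 74352, and DESeq2 recovered 68% and 100%. The simulation gave all peaks the same chosen dispersion and no shift of chromosome 8, so these shares need not hold for the real libraries. Members and lists were chosen with earlier results of these data known. Peaks were named by rule: among called peaks whose groups did not overlap, by adjusted p, the first 10 in each direction off chromosomes 5, 6 and 8, the first 5 on chromosomes 5 and 6, the first 3 on chromosome 8, called peaks within 100 kb of a stretch, peaks at the ends of partner genes, the first 4 of each list, and the 5 runs with most peaks. Other peaks, runs and genes in the text were named after their values were seen. IgG libraries were not analysed here, and a few results are not reported here.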

Additional observations from a re-analysis of the deposited data

How the results depend on the processing

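No peak called off chromosome 8 changed sign under the alternatives that refitted single peaks (domains were not compared for sign). Of the 796 calls, 146 (124 higher, 22 lower) were made in all 17 settings compared. The test against a log2 fold change of 0.5 was not among the 17. With that test required too, 126 calls remained (106 higher, 20 lower). The count off chromosome 8 was 382 with DESeq2 (345 higher, 37 lower), 205 against a log2 fold change of 0.5 and 3310 with no fold minimum, and 561 to 883 when single libraries were left out. Without replicate 1 of the Hmx1 deletion, the shallowest library, 427 of the 796 calls were shared, and without its replicate 2, 334 were. After thinning to the smallest library 774 were called, of which 423 were shared. On chromosome 8 the count of 428 became 153 with DESeq2, 24 with chromosome medians removed, 62 against 0.5 and 1520 with no fold minimum, and 249 to 435 without single libraries, 249 being without replicate 1 of the Hmx1 deletion. On chromosome 6 the count of 106 became 51, 38 and 293 under DESeq2, the 0.5 test and no fold minimum (71 to 97 without single libraries), and on chromosome 5 the count of 79 became 42, 26 and 247, 48 for domains, and 60 to 85. The cause of these differences was not tested, beyond what the stricter thresholds and fewer features bring by construction.

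The chromosome 8 median was -0.550 with library totals alone, -0.575 with a mean count of at least 20, -0.572 thinned, and -0.592 to -0.574 without single libraries. Beside the Hoxa stretch the median was -0.182 thinned, -0.278 within 50 kb and 0.096 within 1 Mb, and ran from -0.168 to 0.022 without single libraries. Its sign thus turned within 1 Mb, and without replicate 2 of the Hmx1 deletion, where it was 0.022. Beside the Hmx1 stretch it was 0.094 thinned, 0.792 within 50 kb, -0.021 within 1 Mb and 0.098 to 0.370 without single libraries. At Vax2 the range without single libraries was -0.081 to 0.131. At Nkx1-1 and Msx1 the median was -0.027 with abundance-dependent offsets, -0.082 with chromosome medians removed, -0.020 with library totals, -0.091 thinned, -0.083 without chromosome 8, -0.100 within 50 kb, and -0.084 to 0.007 without single libraries. With a cutoff of 25% the stretches kept 0.328% (Hoxa) and 0.971% (Hmx1) of counts, and took in the Hotairm1 peak and the peak at 35402378.

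Whether replicate numbers pair the samples could not be decided. Deviations of same-numbered libraries correlated at -0.0428 and 0.0831 by title and at -0.0831 and -0.115 by the library numbers in the descriptions. With 2 Hmx1 deletion libraries, their deviations are mirror images of each other, so these values are not independent. With the replicate block of the titles 872 peaks were called off chromosome 8, and the medians were 0.115 beside Hmx1, -0.038 at Vax2 and -0.071 at Nkx1-1 and Msx1. With the block of the descriptions 590 were called off and 279 on chromosome 8, and the median at Nkx1-1 and Msx1 was -0.082. Of the 73 named peaks 45 were called in every setting compared and none reversed.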
